A study of Rattus norvegicus with 2 samples.

Results

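Toll-like receptors and the NF-kB pathway that they switch on were examined in rat liver RNA through 10 genes: the receptors Tlr2 and Tlr4, the co-receptor Cd14, the adaptor Myd88, the kinase Irak1, the NF-kB subunit genes Nfkb1, Nfkb2 and Relb, and the inhibitors Nfkbia and Tnfaip3. Every probe carrying one of these symbols in the deposited table was taken. Of the 10 genes, 8 had a probe, with 11 probes among the 41012 of the table. Relb and Tnfaip3 had no probe under their symbols or Entrez gene IDs and were not analysed here. The comparison was between liver RNA of male Wistar rats, 22 weeks old, given a propolis extract (labelled EEP) and of rats given normal saline. All of them had first received 52% alcohol at 1% of body weight for 7 weeks to induce a fatty liver, so rats without alcohol are not part of the comparison. Extract or saline followed for 4 weeks at 0.1% of body weight. The extract was given as a 50% ethanol solution and the saline was not, so effects of the extract and of its solvent cannot be told apart, and the labels do not make clear whether the alcohol feeding went on in these weeks. Each group is 1 pool of RNA from 6 rats, read on 1 Agilent one-colour array. With 1 array per group there is no replicate check and no test. Differences are given in log2 units, propolis minus saline.

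TLR4, with CD14 and the secreted protein MD-2, recognises lipopolysaccharide (endotoxin) of Gram-negative bacteria, and TLR2 recognises bacterial lipoproteins. Both signal through the adaptor MyD88 and IRAK kinases to the IkB kinases, which release NF-kB from its inhibitor IkB-alpha, the product of Nfkbia, so that NF-kB enters the nucleus and starts transcription. Nfkbia and Tnfaip3 are themselves induced by NF-kB and shut the signal off again. In the liver this system is best known from Kupffer cells, the resident macrophages, which meet gut-derived endotoxin in portal blood, and alcohol is known to raise that exposure.

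The promoters of the NF-kB subunit genes and of Nfkbia are shown because they carry the kind of site through which NF-kB can regulate its own pathway. That of Cd14 is shown for comparison, as a window with no match. Each is the RefSeq window on the rat assembly GRCr8, from 250 bases before to 50 bases after the gene start, 5′ to 3′ on the gene's strand. Capitals mark matches, on either strand, to GGG followed by any 2 bases and TTTCC, a form of the kappa B site that NF-kB binds. Nfkb1 lies at chr2:226805413-226805712 (minus strand), Nfkb2 at chr1:255108124-255108423 (plus strand), Nfkbia at chr6:78597023-78597322 (minus strand) and Cd14 at chr18:28611109-28611408 (minus strand).
Nfkb1: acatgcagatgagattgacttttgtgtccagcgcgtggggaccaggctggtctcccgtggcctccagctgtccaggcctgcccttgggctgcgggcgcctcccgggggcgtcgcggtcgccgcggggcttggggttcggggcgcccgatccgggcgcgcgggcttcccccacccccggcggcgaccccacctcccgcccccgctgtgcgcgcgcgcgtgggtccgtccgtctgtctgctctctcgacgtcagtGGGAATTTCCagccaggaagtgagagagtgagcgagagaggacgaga
Nfkb2: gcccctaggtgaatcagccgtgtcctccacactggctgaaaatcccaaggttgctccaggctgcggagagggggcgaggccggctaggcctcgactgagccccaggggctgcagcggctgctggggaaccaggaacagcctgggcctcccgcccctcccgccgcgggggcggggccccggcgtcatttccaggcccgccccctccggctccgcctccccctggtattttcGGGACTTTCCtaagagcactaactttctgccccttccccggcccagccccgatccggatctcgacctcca
Nfkbia: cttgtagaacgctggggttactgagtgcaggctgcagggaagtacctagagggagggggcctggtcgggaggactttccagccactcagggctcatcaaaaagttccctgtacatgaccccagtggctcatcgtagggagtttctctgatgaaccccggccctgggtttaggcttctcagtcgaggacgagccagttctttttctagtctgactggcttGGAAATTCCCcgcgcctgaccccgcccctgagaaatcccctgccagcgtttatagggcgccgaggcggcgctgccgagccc
Cd14: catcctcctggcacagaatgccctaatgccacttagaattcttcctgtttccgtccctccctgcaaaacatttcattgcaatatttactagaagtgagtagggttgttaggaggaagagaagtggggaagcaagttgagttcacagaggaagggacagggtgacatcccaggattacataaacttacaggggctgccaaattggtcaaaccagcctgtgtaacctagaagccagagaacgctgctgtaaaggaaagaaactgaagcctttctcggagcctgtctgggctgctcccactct

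A promoter window was given for 9 of the 10 genes, all but Relb. The motif was found in 4 of them, in Nfkb1, Nfkb2, Nfkbia and Tnfaip3, and in 1.53% of all 33469 promoter windows. In Nfkb1 the match lay 4 to 13 bases into the transcribed part. In Nfkb2 it lay at -20 to -11 from the start and in Nfkbia at -31 to -22, on the opposite strand. The match in Nfkb2, GGGACTTTCC, is one case of the motif; the same 10 bases occurred in Tnfaip3 as well, and in 0.111% of all windows. The windows of the receptors, Myd88 and Irak1 held no match to the motif. Other forms of the kappa B site were not looked for, so a window without a match may still hold one. The Tlr2 window, for example, holds GGGAATTCCC, which ends in TTCCC in place of TTTCC. All these are matches of letters and not evidence of binding.

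All 11 probes were marked P, taken here as detected, on both arrays, and their signals lay above the lowest detected value of 3.83. Nfkbia was the member with the largest difference and was lower in the propolis pool, and Cd14 was higher by both of its probes, while the receptors, the adaptor, the kinase and the subunit genes differed by less than 1.5-fold by their brightest probes. None of the 8 measured members was 2-fold or more higher and none 2-fold or more lower; of the 11915 genes tested, 3.58% were higher and 5.09% lower by that much. The median difference of the 8 genes was 0.0031, with 4 above and 4 below 0, and that of all genes tested was 0.019. Nfkb2 is counted above 0 by its brighter probe, but its other probe disagreed. With the probes of each gene averaged the median of the 8 genes was -0.21. At 1.5-fold, 1 member was higher (Cd14) and 1 lower (Nfkbia), against 8.08% and 10.2% of all genes. With 8 genes, these counts do not set the members apart from the background.

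**Figure D1:**
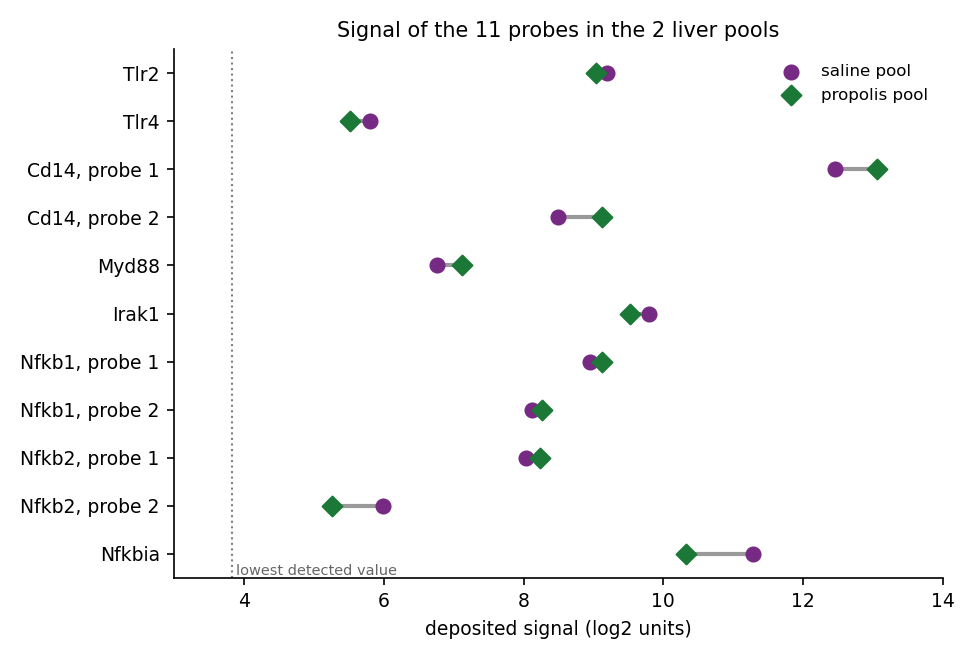
Deposited log2 signal (horizontal axis) of each of the 11 probes in the saline pool (circles) and the propolis pool (diamonds), 1 array each, with a grey line joining the pools and a dotted line at the lowest detected value of 3.83. Nfkbia and the second Nfkb2 probe were lower in the propolis pool, both Cd14 probes were higher, and the other pairs lie close together.

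Among the receptors, Tlr2 had a log2 signal of 9.04 in the propolis pool and 9.20 in the saline pool, a difference of -0.16. Tlr4, the endotoxin receptor itself, had 5.52 against 5.80, a difference of -0.28. Both were thus slightly lower in the propolis pool, by amounts that 28.5% and 20.4% of all genes reached or passed in the same direction. Among genes of like mean signal the shares were 22.1% for Tlr2 (8 to 10) and 33.0% for Tlr4 (below 6). Cd14, which hands lipopolysaccharide to TLR4 and also exists as a soluble plasma protein, had a signal of 13.06 against 12.45 by its brighter probe. By its other probe, which starts 780 bases away in the deposited coordinates, it had 9.12 against 8.50. The probes thus gave the same difference, 0.60 and 0.62 (1.52-fold and 1.54-fold higher). Of all genes, 7.76% were at least as much higher as Cd14, and 4.47% of the 1500 genes with a mean log2 signal of 12 or more. The gap between its probes, 0.023, was smaller than that of 90.9% of the 2596 genes with 2 probes detected on both arrays.

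Myd88 and Irak1, which act next to the receptors, each differed by less than 1.5-fold. Myd88, the adaptor shared by most Toll-like receptors and the interleukin-1 receptor, had a signal of 7.12 in the propolis pool and 6.77 in the saline pool, a difference of 0.35 (1.28-fold higher). Irak1, the kinase recruited by MyD88, went the other way, with 9.52 against 9.80 and a difference of -0.28 (1.21-fold lower). Each was read by 1 probe. Between the 2 probes of one gene the difference varied with a robust SD, per probe, of 0.19 for signals of 6 to 8 and of 0.14 for signals of 8 to 10, which covers spot and probe error on these arrays and not the spread between rats or pools.

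Nfkb1 encodes p105 and its product p50, and Nfkb2 encodes p100 and its product p52, the subunit of the alternative NF-kB pathway. Nfkb1 had signals of 9.12 against 8.95 and, by the other probe, 8.26 against 8.12, with differences of 0.17 and 0.15. The Nfkb2 probes disagreed. The brighter one had 8.23 against 8.03, a difference of 0.20, and the dimmer one 5.26 against 5.98, a difference of -0.72. A gap between probes as wide as theirs, 0.93, was seen in 2.58% of the 2596 genes with 2 probes, so no direction is given for Nfkb2. In the deposited coordinates, for which the sources used here name no build, the Nfkb2 probes lie on chromosome 1 from 251526647 to 251526839 and from 251522869 to 251523193, and these stretches of 193 and 325 bases are longer than the 60 bases of most other member probes.

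Nfkbia had a signal of 10.33 in the propolis pool and 11.29 in the saline pool, a difference of -0.96 or 1.94-fold lower, just short of the 2-fold threshold. Of all genes 5.4% were at least as much lower, and 1.39% of the 1864 genes with a mean signal of 10 to 12, where the robust SD between probes was 0.12. It was read by a single probe, on chromosome 6 from 75730438 to 75730497 in the deposited coordinates, so a second probe could not check it.

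**Figure D2:**
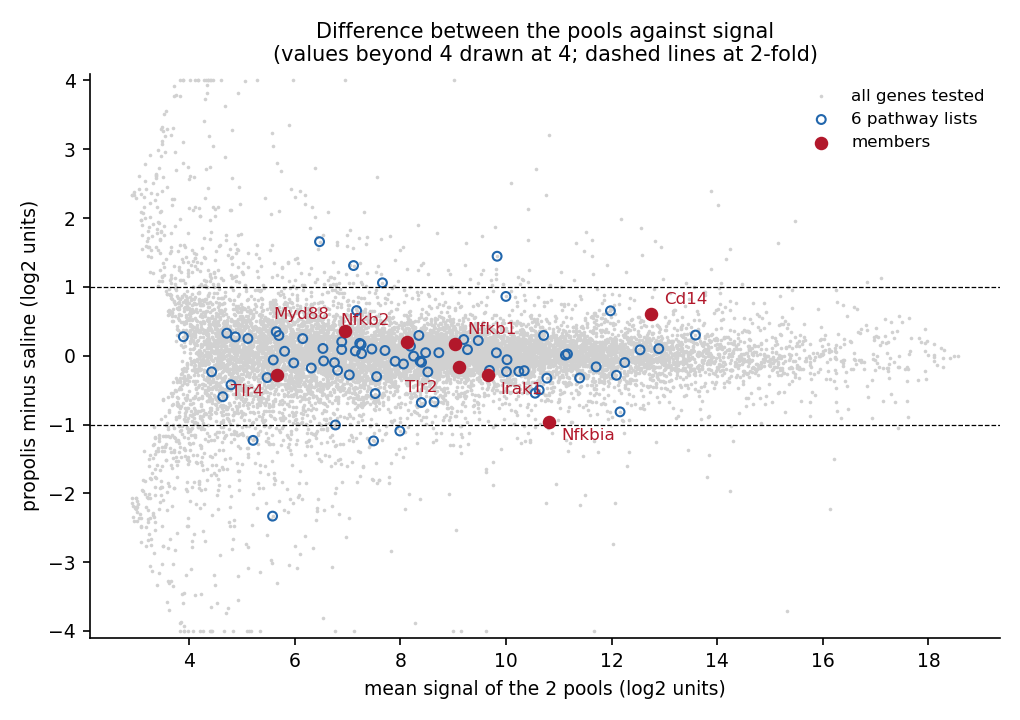
Difference between the pools (vertical axis, log2 units) against the mean signal (horizontal axis, log2 units) for the 11915 genes tested (grey), the genes of 6 pathway lists (open circles) and the 8 measured members (filled circles), each read by its brightest detected probe. Nfkbia, at -0.96, lies near the lower edge of the cloud for its signal. Cd14, at 0.60, lies in the upper part of the cloud, with 4.47% of genes of like signal at least as much higher. The other 6 members lie well within the cloud.

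**Figure D3:**
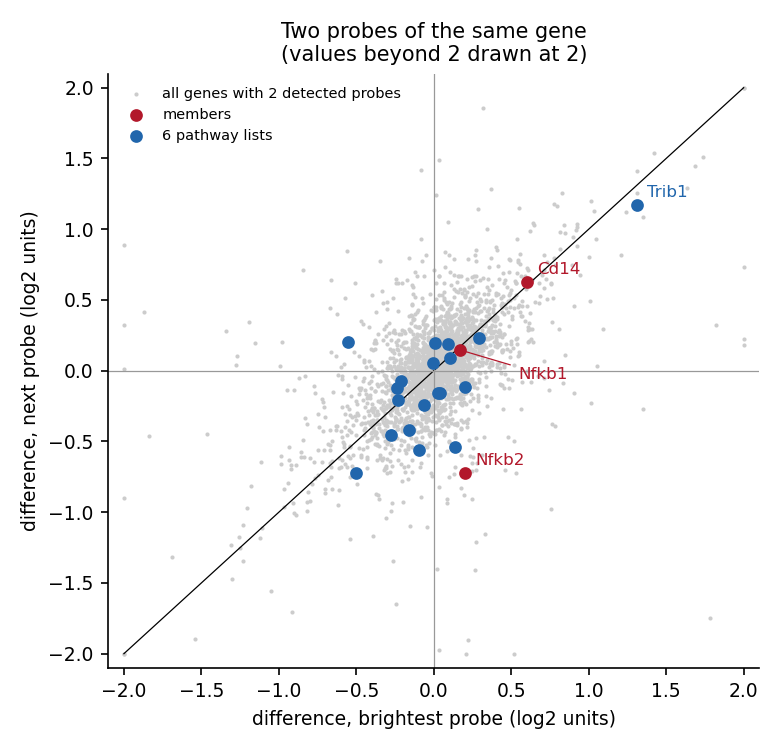
Difference by the brightest probe (horizontal axis) against the difference by the next probe (vertical axis), in log2 units, for the 2596 genes with 2 probes detected on both arrays (grey), with members and pathway genes coloured and the line of equality drawn. Cd14 (0.60 and 0.62) and Nfkb1 (0.17 and 0.15) lie on the line, and Nfkb2 (0.20 and -0.72) lies far from it.

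The wider pathway was described by 6 lists with 107 genes, of which 77 were detected. Of these, 4 were higher and 5 lower by 2-fold or more (5.19% and 6.49%, against 3.58% and 5.09% of all genes), and the median difference was -0.0069. The shares of all genes include 933 genes detected on 1 array only, against 1 of the 77 pathway genes. When P was required on both arrays, the pathway counts stayed at 4 and 5. The all-gene counts fell from 427 and 607 to 192 and 295, so the background shares above are high for the pathway genes. The genes 2-fold apart came from 5 of the 6 lists.

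Among receptors and recognition proteins other than the members, 6 of 8 detected genes lay below 0, against 47.5% of all genes. Their median was -0.68, against 0.019 over all genes. The list leaves out Tlr2 (-0.16), Tlr4 (-0.28) and Cd14 (0.60), which were counted as members and lay nearer to 0 or above it. Tlr9, the receptor for unmethylated CpG DNA, had a signal of 4.41 against 6.75 and was 5.03-fold lower, near the lowest detected value in the propolis pool. Pglyrp1, a peptidoglycan-recognition protein of neutrophil granules, had 4.59 against 5.83 (2.35-fold lower), also at a low signal. Lbp, the plasma protein that carries lipopolysaccharide to CD14, had 11.75 against 12.57 (1.76-fold lower), and so differed in the opposite direction from Cd14. Ly86, which encodes MD-1, a partner of the receptor homologue RP105, had 8.06 against 8.74 (1.60-fold lower). Ly96, which encodes the TLR4 partner MD-2, had 5.85 against 5.55 (0.29). Along the chain that senses endotoxin the differences were therefore -0.82 for Lbp, 0.60 for Cd14, 0.29 for Ly96 and -0.28 for Tlr4, with no common direction. Ly96 and Tlr4 had mean signals below 6, where the robust SD per probe was 0.31. Their directions are therefore uncertain. Tlr5, Tlr7, Tlr10, Cd180, Aoah and Nod2 were detected on neither array, and 6 further genes of this list had no probe.

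Of 15 detected adaptors and proximal kinases, 8 lay above 0 and 7 below, with a median of 0.0081. Traf6, the ubiquitin ligase that IRAK1 activates, had a signal of 7.44 against 8.54 and was 2.14-fold lower by its single probe. Peli2, a ubiquitin ligase that acts on IRAK proteins, had 10.43 against 9.57 (0.86), but was at least 0.64 log2 units lower by a dimmer probe detected in the saline pool only. Ecsit, a TRAF6-binding protein also needed in mitochondria, differed by 0.30. Ticam2, an adaptor of TLR4, was detected in the propolis pool only, at least 1.15-fold higher. Irak2 and Irak3 were detected on neither array.

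The kinases that carry the signal to NF-kB gave a median of -0.076 over 13 genes. Map3k14, the NF-kB-inducing kinase that drives processing of p100 to p52, was the one at least 2-fold higher, with a signal of 8.19 against 7.13 (2.08-fold). Its other probe, detected in the propolis pool only, gave 5.45 against 4.30 and thus at least 1.15 log2 units in the same direction. Ikbke, an IkB kinase-related kinase, differed by -0.42, Map3k8, the kinase that links these receptors to the ERK pathway, by -0.30 and Ikbkg, the regulatory subunit NEMO, by -0.23. The catalytic kinases Ikbkb and Chuk, named after their values were seen, lay at -0.23 and -0.12.

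None of 8 detected genes of the NF-kB subunit and IkB list was 2-fold apart, and their median was 0.077. Bcl3, a nuclear IkB protein that binds p50 and p52 dimers, had a signal of 12.30 against 11.65 and was 1.57-fold higher. The repressor gene Nkrf differed by 0.35 and Nfkbib, which encodes IkB-beta, by 0.22. Nfkbiz, another nuclear IkB gene, differed by -0.28, and by -0.46 by its other probe. Rela, the subunit p65 and chief partner of p50, lay at 0.042, with 9.84 against 9.80. Nfkbie, which encodes IkB-epsilon, lay at -0.21, so of the IkB genes measured Nfkbia lay furthest from 0. Rela and Nfkbie were named after their values were seen.

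Of 10 detected ubiquitin editors and other brakes, 2 were higher and 1 lower by 2-fold or more, and the median was 0.11. These are 20% and 10%, against 3.58% and 5.09% of all genes, and with 10 genes the shares are imprecise. Trib3, a pseudokinase gene induced by stress and by low amino acids, had a signal of 10.55 against 9.11 (2.72-fold higher). Its relative Trib1 had 7.77 against 6.46 (2.48-fold higher), with 1.17 log2 units by its other probe. Zfp36, which encodes tristetraprolin, a protein that destabilises cytokine mRNAs, had 6.27 against 7.27 (2.01-fold lower, 1 probe). Tnip2, an A20-binding inhibitor, differed by 0.29 and by 0.23 by its other probe.

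Of 30 NF-kB target genes, all with a probe, 23 were detected, and their median was -0.059, with 10 above and 13 below 0. Traf1, a TNF receptor-associated factor, had a signal of 7.30 against 5.64 and was 3.15-fold higher, and Ccl3, a macrophage chemokine, had 6.87 against 8.11 and was 2.36-fold lower. Birc2, which encodes cIAP1, a ubiquitin ligase that keeps the level of the Map3k14 product low, differed by 0.66 and the protease gene Plau by -0.60 at a low signal. Tnf, Il6, Cxcl2, Ccl20, Sele, Ptgs2 and Nos2 were detected on neither array. The other detected targets ran from -0.55 to 0.33, among them, chosen after their values were seen, Cd40 at -0.55 (0.21 by a dimmer probe), Ccl5 at -0.55, Icam1 at -0.32, Vcam1 at 0.23 and Ccl2 at 0.33.

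**Figure D4:**
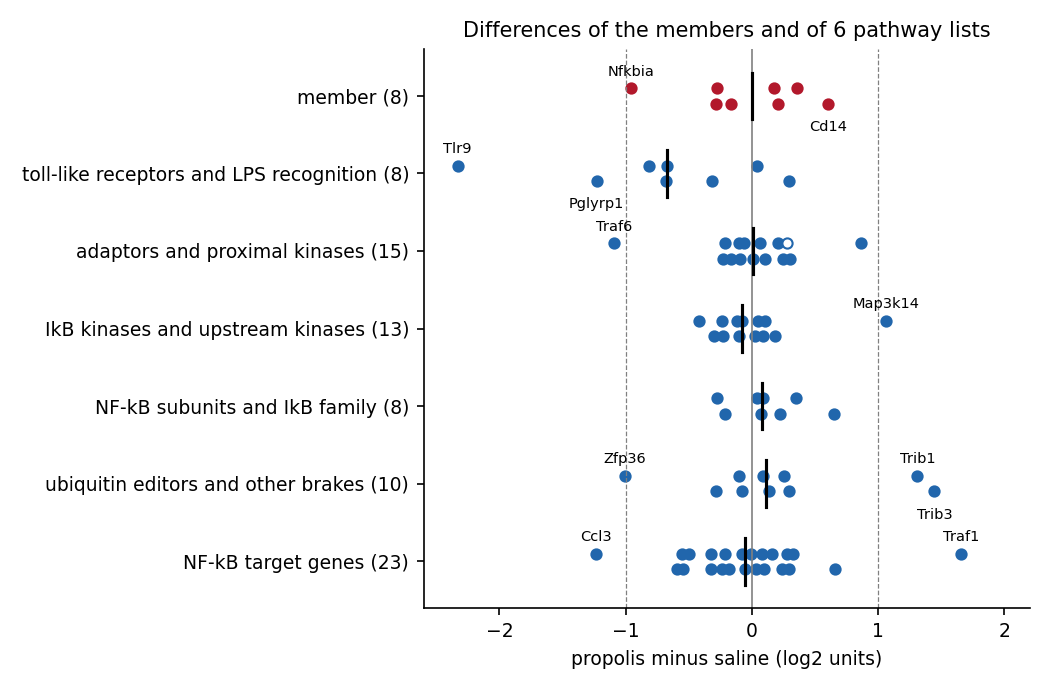
Difference between the pools (horizontal axis, log2 units) for the 8 members and the detected genes of 6 pathway lists (number of genes in parentheses). Black bars are medians, dashed lines mark 2-fold, the open circle is a gene detected on 1 array only, and the receptor list has the lowest median, -0.68. That list leaves out Tlr2, Tlr4 and Cd14, which are shown with the members.

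Markers of macrophages and neutrophils were lower in the propolis pool as well. In bulk tissue fewer cells of a type and less RNA per cell cannot be told apart. Of 13 detected Kupffer cell and macrophage markers, 12 lay below 0, with a median of -0.67. Of all genes 47.5% lay below 0, and their median was 0.019. The summed linear signal of the 13 markers was 82095 in the propolis and 120348 in the saline pool. Most of it came from Clec4f, C1qb and C1qa, with log2 signals of 15.44, 15.37 and 13.97 in the saline pool. The scavenger receptor gene Marco was 5.78-fold and the integrin gene Itgam, at a low signal, 3.27-fold lower, Clec4f, specific to Kupffer cells in rodents and named after its value was seen, lay at -0.53, and Adgre1 was the one above 0, at 0.050. Cd14, also a monocyte and macrophage gene, thus lay opposite to that list, and Tlr2 and Tlr4 were nearer to 0 than its median. Of 6 detected neutrophil and monocyte markers, 5 lay below 0, with a median of -1.32 and summed signals of 478 and 1079; S100a8 was 3.03-fold, S100a9 2.05-fold and Ly6c 5.13-fold lower, and Fcnb lay at -0.0043. Mpo, detected in the saline pool only, was at least 3.40-fold lower. Camp, a neutrophil granule gene detected in the propolis pool only, went the other way and was at least 1.21-fold higher, and 7 other markers, among them Elane and Csf3r, were detected on neither array. The 10 hepatocyte markers were all detected, had a median of -0.032 and lay between -0.62 and 0.26, with 4 above and 5 below 0. The lowest, Tat (-0.62) and Cps1 (-0.56), lay near the macrophage median. Hnf4a, named after its values were seen, lay at 0.17, and at -0.40 by its other probe. Alb, Ttr, Tf, Serpina1 and Apoh, named for their signals, read from 17.02 to 18.48, near the highest value of 18.57. Whether differences are compressed at such signals was not tested, so the hepatocyte median is a weak reference. The part of macrophage and neutrophil RNA in the differences of Nfkbia, Ccl3, Tlr9 and the other receptor genes was not tested.

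**Figure D5:**
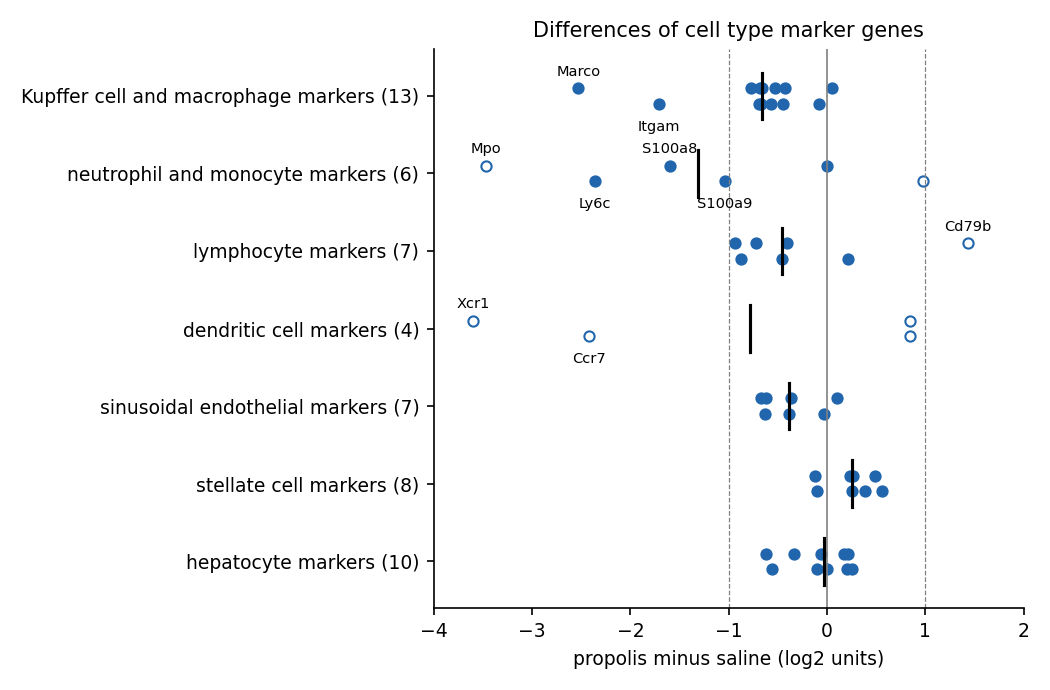
Difference between the pools (horizontal axis, log2 units) for the detected markers of 7 cell types (number of genes in parentheses). Black bars are medians, dashed lines mark 2-fold, and open circles are genes detected on 1 array only; 12 of 13 macrophage markers lie below 0, and hepatocyte markers lie around it, with a median of -0.032.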

How the data were processed

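Liver RNA pools of 6 rats per group, from samples with an RNA integrity number above 8.5 per the labels' protocols, were labelled with Cy3 and hybridised to 2 arrays; the submitters' processing notes name Agilent Feature Extraction 9.5. The authors deposited log2 values, a P, M or A mark for every value, and a linear ratio that equals the propolis over the saline value within 1.84e-07 log2 units. The sorted columns differed by at most 0.0255 and both had a median of 5.07, as after quantile normalization. How the authors corrected background and normalized is not given here, nor what the marks mean; P was taken as detected. The series matrix repeats these log2 values, rounded by the authors to within 0.005, for 23054 probes, with column medians of 7.53 and 7.52. Its scale and direction are thereby known, and it was not centred.

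Symbols of 20959 of 21871 named probes were updated by Entrez ID to RefSeq names (GRCr8), and the others were kept. A gene's value is that of its brightest probe among those with P on at least 1 array, which left 11915 genes. A gene with P on 1 array only has a bound, against the higher of the dim value and the lowest P value. Genes were counted at 2-fold, with no test. Promoter windows came from RefSeq (GRCr8) and covered 81 of the 107 pathway genes. The counting was tested on simulated data with shifts well above the threshold, which checks the code and not how reliable counts near 2-fold are.

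The members and gene lists were chosen with earlier results of these data known. Named were all members, and in each pathway or marker list the genes at least 2-fold apart and up to 4 furthest from 0; of marker genes only some are printed, and exceptions are marked. Python 3.11.15, numpy 2.4.6, pandas 2.3.3, statsmodels 0.14.6 and matplotlib 3.10.9 were used. Precision is limited by there being 1 array per group.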

Additional observations from a re-analysis of the deposited data

How the results depend on the processing

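Values were recomputed with other scalings (array median, 75th percentile, quantile, loess with span 0.3), the series matrix, other detection filters, other probe choices, 50 signal units added and other thresholds. In 10 such settings Nfkbia ranged from -0.96 to -0.93 and Cd14 from 0.60 to 0.61, and of the 8 members only Nfkb2 changed sign, to -0.26 when its probes were averaged. Most of these settings could hardly move a member. The arrays already had nearly the same distribution, the series matrix only rounds the member values, and all member probes were marked P. The series matrix holds 23054 of the 41012 probes, so fewer genes enter the all-gene counts given for it below. Probe choice cannot move a gene with 1 probe. For Nfkbia that leaves loess (-0.96) and 50 units added (-0.93), so the narrow ranges are a weak check. The member median was -0.21 with the mean or the median of a gene's probes. At 1.5-fold, 1 member was higher and 1 lower. Of the pathway genes, 7 were at least 1.5-fold higher and 9 lower, and at 3-fold 1 was higher (Traf1) and 1 lower (Tlr9). With 50 units added, which shrinks differences at low signal, 2 pathway genes stayed 2-fold higher (Traf1 and Trib3) and 1 lower (Tlr9). Over all genes, the counts higher and lower were 195 and 297 with the series matrix, 192 and 295 with P on both arrays, 129 and 164 with 50 units added, 963 and 1218 at 1.5-fold and 206 and 287 at 3-fold, against 427 and 607, and 663 and 903 without a filter. No paired analysis was possible because each group has 1 array, and for the same reason no array could be left out. Signals near the lowest detected value of 3.83 limit the sizes given for Tlr9, Pglyrp1, Itgam and Mpo; with 50 units added Pglyrp1 lay at -0.52, Itgam at -0.85 and Mpo at -0.86.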

Other observations

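The same promoter motif, GGG, any 2 bases and TTTCC on either strand, was looked for in the wider pathway. It was found in 5 of 21 promoter windows of the NF-kB target list (Cxcl1, Cxcl2, Ccl20, Il6 and Il1rn), in Nfkbiz and Rel of the subunit and IkB list, in Ikbkg and in Traf3, and in none of the windows of other Toll-like receptors or of the listed brakes. The inhibitor gene Tnfaip3, counted as a member and so not in the list of brakes, had 2 matches. Genes with the motif that were detected included Il1rn, which encodes the interleukin-1 receptor antagonist (-0.50, and -0.72 by its other probe), Nfkbiz (-0.28), Ikbkg (-0.23), Traf3 (-0.096) and the chemokine gene Cxcl1 (0.076), while Cxcl2, Ccl20 and Il6 were detected on neither array and Rel had no probe. These genes were named for their motif, whatever their differences.

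Markers of sinusoidal endothelial cells, which also carry Toll-like receptors, were mostly lower in the propolis pool, with 6 of 7 detected genes below 0 and a median of -0.39. Those of stellate cells, the vitamin A-storing cells of the liver, were mostly higher, with 6 of 8 above 0, a median of 0.26, Reln at 0.55 and Lrat at 0.48; by their other probes these lay at 0.75 and 0.69. Col1a1, the fibrillar collagen gene, was below 0 by all 3 of its probes (-0.10, -0.56 and -1.35) and Pdgfrb lay at -0.13. Of 7 detected lymphocyte markers 5 lay below 0 (median -0.46), while the B cell gene Cd79b, detected in the propolis pool only, was at least 2.26-fold higher. The 4 detected dendritic cell markers were each detected on 1 array only, with Xcr1 at least 3.59-fold lower and Siglech at least 1.47-fold higher. For comparison with these counts, 47.5% of all genes lay below 0, and their median was 0.019.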
